A study of Mus musculus with 2 samples.

Results

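The genes described here are the protein-coding subunits of the mouse proteasome, chosen by symbol (Psma, Psmb, Psmc, Psmd or Psme followed by a digit), together with Nfe2l1, a transcription factor that drives their expression. The rule gave 45 genes, of which 43 had at least 1 read among the 15523 genes with a read in either library. By symbol they are 18 core genes, 21 cap genes (among them Psmc3ip, which is no subunit), 5 activator genes and the regulator Nfe2l1. Poly(A)+ RNA of brown adipose tissue, the fat that burns lipid for heat, was taken from its interscapular depot and read directly on a nanopore, without amplification. The cold library came from a pool of 3 male wild type C57BL/6N mice aged 20 weeks, housed singly at 4 °C for 24 h. The control library, labelled ctrl, is from the same tissue of male wild type C57BL/6N mice, also given as 20 weeks old, with general housing at 22 to 24 °C. No source used here gives the number of mice in it. The treatment text stored with the control repeats the cold exposure, so the groups rest on the treatment label, and the extraction text of both libraries speaks of a different fat depot. With 1 library per group there is no spread between replicates, no test and no p-value. Values in parentheses after a ratio or share are 95% counting intervals, which compare 2 libraries and not the conditions.

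The proteasome is the barrel-shaped protease that degrades proteins tagged with ubiquitin. Its core is built of stacked alpha and beta rings, with the proteolytic sites on beta subunits inside. A cap of ATPases, ubiquitin receptors and a deubiquitinase recognises, unfolds and feeds in the substrate, and activator rings that use no ATP can take the place of the cap. Nfe2l1 is made as a protein of the endoplasmic reticulum membrane, is itself degraded by the proteasome, and is cut and released to activate subunit genes when proteasome capacity is short. In mouse brown fat Nfe2l1 is known for maintaining proteasome activity during cold exposure. Interferons induce a further set of subunits, among them the core subunits Psmb9 and Psmb10 and the activator pair Psme1 and Psme2.

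The promoters of 6 of the genes called higher or lower below are given 5′ to 3′, from 250 bases before to 50 bases after the transcript start (RefSeq, GRCm38.p6). Psme1, Psme2 and Psmb9 are interferon-inducible and were lower in the cold library. Psmb5 and Psmc6, which were higher, and Psmd9, which was lower, are printed because they hold a match to the antioxidant response motif bound by Nfe2l1 and its relative Nfe2l2. Not printed are Psma6, also higher, and Psma3, lower, whose windows lack this motif. Psmb2 and Psmd7, also lower, had no matched window. Capitals mark matches on either strand to this motif (TGACNNNGC), to CCAAT, and to the interferon-stimulated and gamma-activated motifs (GAAA, any 2 bases, GAAA; and TTCNNNGAA).
Psme1 promoter, chr14:55578244-55578543, plus strand: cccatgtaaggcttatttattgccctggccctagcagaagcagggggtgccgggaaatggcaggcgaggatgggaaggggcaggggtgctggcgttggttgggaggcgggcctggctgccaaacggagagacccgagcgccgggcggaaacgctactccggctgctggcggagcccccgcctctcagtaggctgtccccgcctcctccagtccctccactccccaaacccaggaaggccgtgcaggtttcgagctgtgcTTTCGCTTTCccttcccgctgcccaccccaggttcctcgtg
Psme2 promoter, chr14:55591052-55591351, minus strand: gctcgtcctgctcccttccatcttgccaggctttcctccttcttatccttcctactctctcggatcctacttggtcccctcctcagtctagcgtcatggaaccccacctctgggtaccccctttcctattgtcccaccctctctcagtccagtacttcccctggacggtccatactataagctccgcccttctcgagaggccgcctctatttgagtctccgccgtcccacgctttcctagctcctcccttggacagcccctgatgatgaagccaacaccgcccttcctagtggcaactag
Psmb9 promoter, chr17:34187281-34187580, minus strand: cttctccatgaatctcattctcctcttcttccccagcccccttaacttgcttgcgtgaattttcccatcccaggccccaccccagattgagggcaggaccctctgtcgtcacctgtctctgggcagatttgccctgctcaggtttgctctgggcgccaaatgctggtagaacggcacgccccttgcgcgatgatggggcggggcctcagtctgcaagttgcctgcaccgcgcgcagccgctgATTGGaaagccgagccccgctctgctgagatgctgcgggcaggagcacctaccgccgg
Psmb5 promoter, chr14:54617946-54618245, minus strand: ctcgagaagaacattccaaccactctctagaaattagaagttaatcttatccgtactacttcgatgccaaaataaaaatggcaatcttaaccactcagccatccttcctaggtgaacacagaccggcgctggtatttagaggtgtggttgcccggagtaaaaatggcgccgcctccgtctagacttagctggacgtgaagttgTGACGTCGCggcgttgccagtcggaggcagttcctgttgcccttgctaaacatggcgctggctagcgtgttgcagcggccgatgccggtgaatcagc
Psmc6 promoter, chr14:45329574-45329873, plus strand: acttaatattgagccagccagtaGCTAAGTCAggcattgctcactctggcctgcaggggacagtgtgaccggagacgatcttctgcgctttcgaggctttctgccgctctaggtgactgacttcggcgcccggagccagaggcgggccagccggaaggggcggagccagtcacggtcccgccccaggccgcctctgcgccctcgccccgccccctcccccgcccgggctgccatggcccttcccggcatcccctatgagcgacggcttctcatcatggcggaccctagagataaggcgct
Psmd9 promoter, chr5:123227940-123228239, plus strand: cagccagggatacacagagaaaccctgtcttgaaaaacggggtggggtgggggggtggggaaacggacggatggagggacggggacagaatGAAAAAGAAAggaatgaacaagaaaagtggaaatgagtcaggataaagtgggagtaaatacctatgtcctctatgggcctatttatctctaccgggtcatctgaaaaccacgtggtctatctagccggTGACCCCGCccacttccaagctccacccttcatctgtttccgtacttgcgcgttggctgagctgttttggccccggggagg
The motif of Psmb5 lies 47 to 39 bases before the start, that of Psmc6 227 to 219 bases before it on the opposite strand, and that of Psmd9 31 to 23 bases before it. In Psme1 the capitals are an interferon-stimulated match on the opposite strand, 9 to 18 bases after the start. In Psmb9 they are a CCAAT match on the opposite strand, 8 to 4 bases before the start. The Psme2 window holds none of the 4 motifs. The proteolytic subunit Psmb5 (GRCm38, chr14:54614119-54618022, minus strand), the ATPase Psmc6 (chr14:45329788-45349705, plus strand), Psme1 (chr14:55578123-55581529, plus strand) and Psme2 (chr14:55587441-55591113, minus strand) are all annotated on chromosome 14. Psmb9 is at chr17:34181987-34187764 on the minus strand and Psmd9 at chr5:123169413-123250131 on the plus strand.

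The cold library held 1215617 reads over 27820 listed transcripts, and the control library 1698124 reads over 29924. Ratios are cold over control after scaling by edgeR's TMM factors (1.06 for cold, 0.940 for control), while RPM values (reads per 1000000 reads of a library) are plain shares, so the ratio of a cold to a control RPM is larger than the scaled ratio. The median log2 ratio of the 7515 genes with at least 20 summed reads was -0.00 after this scaling, and 0.17 when plain library totals were used. Brown adipocyte markers, 12 of 12 with at least 20 reads, took 3.70% of cold reads and 2.75% of control reads, a scaled ratio of 1.19 (1.17 to 1.20). Most of these reads were of Ucp1 and Fabp4. By the rule given below, 4 of the 12 were higher, at ratios between 1.31 and 6.03. Lower were 2 (Cox8b at a ratio of 0.720 and Adipoq at 0.656). All 15 skeletal muscle markers were higher in the cold library, at 0.175% (0.167 to 0.182) of its reads against 0.0401% (0.0371 to 0.0432) of control reads. Muscle also contains proteasomes, and the part of this tissue in the values below was not tested. In tissue RNA, fewer cells of a type and less RNA per cell cannot be told apart.

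Proteasome transcripts as a whole were nearly as frequent in the cold library as in the control after scaling. The 45 genes had 4800 cold and 5849 control reads, or 0.395% (0.384 to 0.406) of the cold and 0.344% (0.336 to 0.353) of the control library, a scaled ratio of 1.01 (0.974 to 1.05). Of the 41 genes with at least 20 summed reads, 20 had a ratio above 1, 21 a ratio below 1, and 25 lay between 20% below and 25% above 1. Their median log2 ratio was -0.00, with quartiles of -0.20 and 0.21, against -0.35 and 0.34 for all genes with that many reads. For the 36 with at least 100 summed reads the median was 0.11, against -0.00 for the 2672 genes with that many.

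Genes are called higher or lower here when the ratio was at least 25% above 1, or at least 20% below it (the same fold downward), with an interval that excluded 1. By this rule 3 of the 41 proteasome genes were higher in the cold library (Psma6, Psmb5 and Psmc6), where 10.5% of all 7515 genes were. Lower by the rule were 7 (Psma3, Psmb2, Psmb9, Psmd7, Psmd9, Psme1 and Psme2), where 9.77% of all genes were. At 2-fold, 0 proteasome genes were higher, against 4.18% of all genes, and 2 were lower (Psmb9 and Psmd9), against 4.07%. Most proteasome genes had at least 100 summed reads, yet some intervals were wider than the fold of the call, such as that of Psmd11 (0.789 to 1.68). At any interval, 7 of the 41 were at least 25% above 1 and 9 at least 20% below it. Among the 36 with at least 100 summed reads, 3 were higher and 5 lower, against 17.2% and 15.6% of the 2672 genes with that many reads. At 2-fold these 36 gave 0 higher and 0 lower, against 3.48% and 2.36%. With an interval off 1 at any fold, 4 of the 41 were above 1 and 7 below, against 11.3% of all genes on each side. Of the 36, 4 were above and 5 below, against 19.2% and 20.1%. Counts in each direction move with the scaling. Plain library totals gave 11 proteasome genes higher and 4 lower, so that 73.3% of calls were higher, against 30.0% with TMM. For all genes the same share was 75.3%, against 51.9% with TMM. Totals without mitochondrial transcripts gave 5 higher and 5 lower. Psma6 and Psmc6 remained higher, and Psmb9, Psmd9, Psme1 and Psme2 lower, under TMM, DESeq2 size factors and both kinds of totals.

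**Figure D1:**
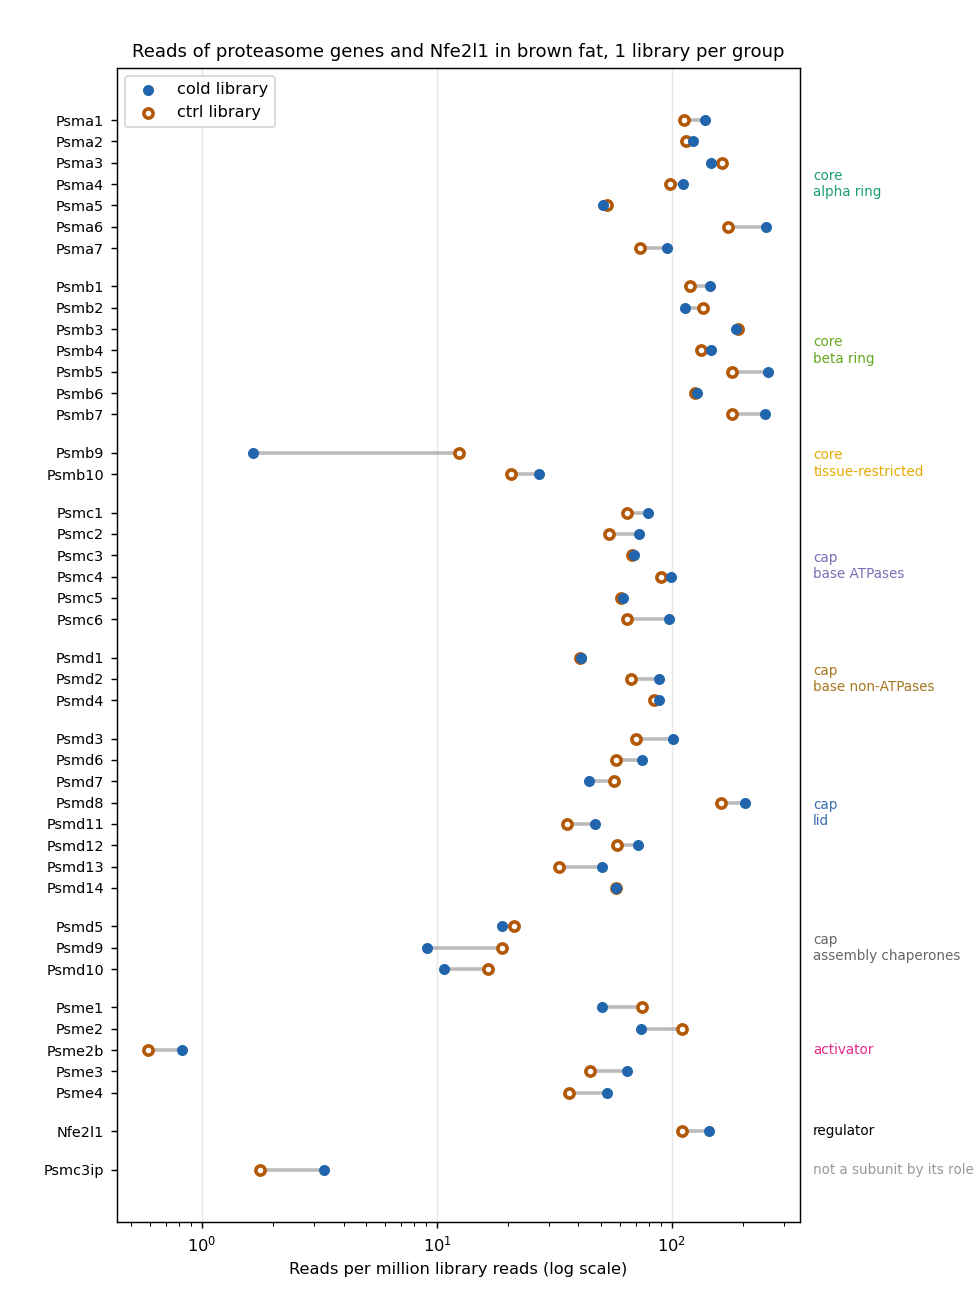
RPM (log axis) of each proteasome gene with a read and of Nfe2l1, filled circles for the cold library and open circles for the control library, 1 library each, grouped by role. Core and cap subunits other than the chaperones and interferon-inducible genes crowd to the right, up to 257 RPM for Psmb5 in the cold library, while Psmb9 stands at 1.65 in the cold and 12.4 in the control library.

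The alpha ring forms the gate of the core. Its 7 genes had 1116 cold and 1336 control reads, a scaled ratio of 1.03 (0.951 to 1.12), and a median log2 ratio of -0.00. Psma6 (chr12:55384222-55418454, plus strand) had 306 cold and 293 control reads, or 252 and 173 RPM, a ratio of 1.29 (1.09 to 1.52). Psma3 (chr12:70974621-70996347, plus strand) had 179 cold and 277 control reads, or 147 and 163 RPM, a ratio of 0.797 (0.657 to 0.965). These neighbours within a ring thus differed in opposite directions. The reads of Psma6 per read of Psma3 were 1.71 in the cold and 1.06 in the control library, a ratio of 1.62 that needs no scaling of the libraries, with an interval that excluded 1 and an upper bound of 2.09. This pair, like the other pairs of single genes below, was chosen after its values were seen. Psma7, with 116 cold and 124 control reads, had a ratio of 1.15 (0.888 to 1.50), and Psma5, with 62 and 90, one of 0.850 (0.605 to 1.19). The other 3, Psma1, Psma2 and Psma4, lay between 0.953 and 1.08, all with intervals that held 1.

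The beta ring carries the proteolytic sites. Its 7 genes had 1493 cold and 1808 control reads, a scaled ratio of 1.02 (0.950 to 1.09). Psmb5, the subunit with chymotrypsin-like activity, had 313 cold and 306 control reads, or 257 and 180 RPM, a ratio of 1.26 (1.07 to 1.48). With DESeq2 size factors its ratio was 1.24, just under the fold used for the call. Psmb7, the trypsin-like subunit, had 303 cold and 307 control reads and a ratio of 1.22 (1.04 to 1.43), so its interval lay above 1 while it stayed under the fold of the call. Psmb6, the caspase-like subunit, had 156 cold and 212 control reads and a ratio of 0.907 (0.733 to 1.12). The 3 catalytic subunits summed to 772 cold and 825 control reads, a ratio of 1.15 (1.04 to 1.27).

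The other beta subunits are structural. Psmb2 (chr4:126677630-126709714, plus strand) had 138 cold and 230 control reads, or 114 and 135 RPM, and was 1.35-fold lower (1.09 to 1.68). The reads of Psmb5 per read of Psmb2 were 2.27 in the cold and 1.33 in the control library, a ratio of 1.70 (1.30 to 2.24). Psmb3, with the most reads of the ring in the control library, had 228 cold and 324 control reads and a ratio of 0.868 (0.729 to 1.03). Psmb1, with 177 cold and 203 control reads, stood at 1.08 (0.874 to 1.32), and Psmb4, with 178 and 226, at 0.971 (0.794 to 1.19). Alpha and beta rings stood in nearly the same proportion, with 0.747 alpha reads per beta read in the cold and 0.739 in the control library, a ratio of 1.01 (0.909 to 1.13).

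**Figure D2:**
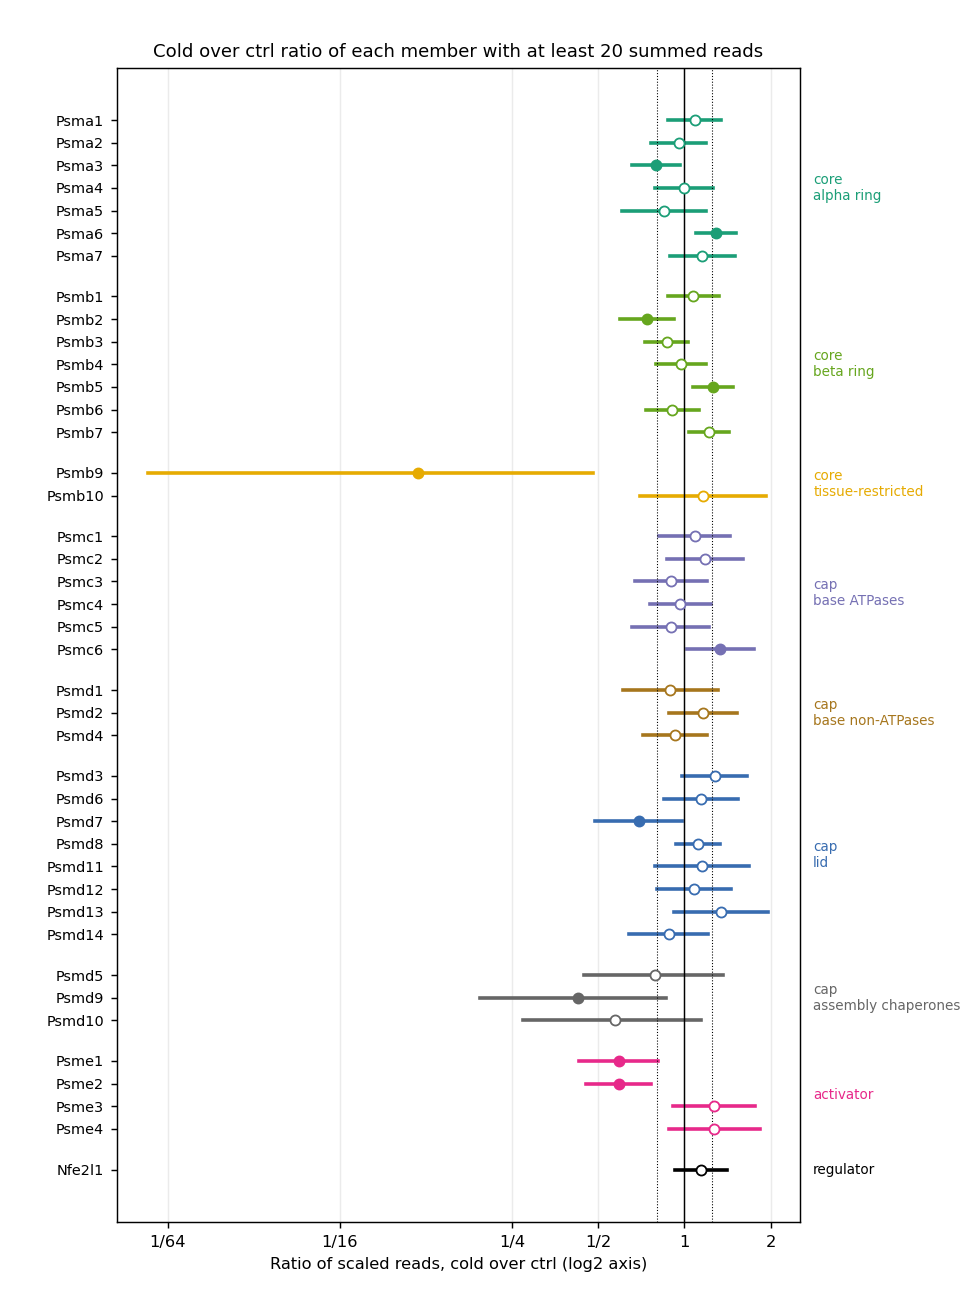
Ratio of scaled reads, cold over control (log2 axis), for the 41 genes with at least 20 summed reads, with 95% counting intervals. Filled circles mark the 10 genes called higher or lower, and dotted lines mark the fold of the call in either direction. Among the filled circles Psmb9, Psmd9, Psme1 and Psme2 lie farthest to the left, and no ratio lies beyond 2-fold to the right.

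Core subunits restricted to certain tissues or induced by interferon were rare in both libraries. Psmb9, which replaces Psmb6 in immune-type proteasomes, had 2 cold and 21 control reads and was 8.51-fold lower in the cold library (2.08 to 74.9). Its wide interval comes from the small counts. With protein-coding transcripts alone it had 1 cold and 11 control reads, under the 20 summed reads needed for a call. Set against Psmb6, which it replaces, Psmb9 had 0.0128 reads per Psmb6 read in the cold and 0.0991 in the control library, 7.70-fold lower (1.84 to 68.7). Psmb10, which replaces Psmb7, did not show this difference. It had 33 cold and 35 control reads and a ratio of 1.16 (0.700 to 1.93), and its reads per Psmb7 read were 0.109 in the cold and 0.114 in the control library. Psmb9 and Psmb10 thus differed from each other, with 0.0606 reads of Psmb9 per read of Psmb10 in the cold and 0.600 in the control library, 9.69-fold lower (2.10 to 91.8). Psma8, known from testis, and Psmb11, known from thymus, had 0 reads in each library, which allows up to 2.47 RPM in the cold and 1.77 in the control library.

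Cap genes of the base were close to even. The 6 ATPases, which unfold substrates, had 581 cold and 681 control reads, a scaled ratio of 1.05 (0.940 to 1.18). Psmc6 had 118 cold and 109 control reads, or 97.1 and 64.2 RPM, a ratio of 1.33 (1.02 to 1.75), and was the ATPase gene that passed the rule. Psmc2, with 88 cold and 92 control reads, had a ratio of 1.18 (0.871 to 1.60), Psmc1, with 96 and 109, 1.09 (0.817 to 1.44), and Psmc4, with the most reads of the ring at 120 and 153, 0.967 (0.755 to 1.24). Psmc3 stood at 0.901 (0.672 to 1.20) and Psmc5 at 0.898 (0.658 to 1.22). Among the base subunits without ATPase activity, Psmd2, a scaffold that docks ubiquitin shuttles, had 107 cold and 114 control reads and a ratio of 1.16 (0.881 to 1.52). Psmd1, the other large scaffold, had 50 and 69 reads and a ratio of 0.894 (0.608 to 1.30). Psmd4, a ubiquitin receptor, had 107 and 142 reads and a ratio of 0.929 (0.716 to 1.20).

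Of the 8 lid genes, 6 had ratios above 1, and the lid summed to 792 cold and 902 control reads, a ratio of 1.08 (0.983 to 1.19). Psmd7 (chr8:107580381-107588464, minus strand), the partner of the deubiquitinase, had 54 cold and 96 control reads, or 44.4 and 56.5 RPM, and was 1.44-fold lower (1.02 to 2.05). Psmd14, the deubiquitinase that removes ubiquitin chains before entry, had 70 cold and 98 control reads and a ratio of 0.881 (0.639 to 1.21). With plain library totals the ratio of Psmd7 was 0.786 (0.552 to 1.11) and that of Psmd14 0.998, and with totals without mitochondrial transcripts that of Psmd7 was 0.724 (0.509 to 1.02), so the call of Psmd7 was lost under both. The other lid genes are structural. Psmd13 had 61 cold and 56 control reads and a ratio of 1.34 (0.919 to 1.97), and Psmd3 had 123 and 119 and a ratio of 1.27 (0.983 to 1.65), so neither interval excluded 1. Psmd8, the lid gene with the most reads, had 249 cold and 275 control reads and a ratio of 1.12 (0.937 to 1.33). Psmd6, Psmd11 and Psmd12 lay between 1.08 and 1.15. The reads of Psmd13 per read of Psmd7 were 1.13 in the cold and 0.583 in the control library, a ratio of 1.93 (1.15 to 3.27).

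The 3 cap chaperones help assemble the ATPase base and leave before the proteasome is complete. All 3 had ratios below 1, with 47 cold and 96 control reads in sum, 1.66-fold lower (1.16 to 2.40). Psmd9 had 11 cold and 32 control reads, or 9.05 and 18.8 RPM, and was 2.36-fold lower (1.16 to 5.19). Psmd10, also known as gankyrin, had 13 cold and 28 control reads and was 1.75-fold lower with an interval that held 1 (0.875 to 3.67). Psmd5 had 23 and 36 reads and a ratio of 0.788 (0.446 to 1.37). Set against the stable cap subunits, the chaperones had 0.0287 reads per cap read in the cold and 0.0503 in the control library, 1.75-fold lower (1.22 to 2.56). These sums rest on few reads. Psmc3ip shares the symbol of the ATPases but is a meiotic recombination factor, and had 4 cold and 3 control reads.

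Activator genes split by family member. Psme1, a subunit of the interferon-inducible ring, had 61 cold and 127 control reads, or 50.2 and 74.8 RPM, and was 1.69-fold lower (1.23 to 2.33). Psme2, its partner in the same ring, had 90 cold and 188 control reads, or 74.0 and 111 RPM, and was 1.69-fold lower (1.31 to 2.20). Both genes of the ring thus differed by the same fold. Psme1 had 0.678 reads per Psme2 read in the cold and 0.676 in the control library, a ratio of 1.00 (0.661 to 1.52). Psme3, which forms a ring of its own in the nucleus, had 78 cold and 76 control reads and a ratio of 1.27 (0.911 to 1.76). Psme4, a large activator that binds the core as a single chain, had 64 and 62 reads and a ratio of 1.27 (0.884 to 1.84). Reads of Psme1 and Psme2 per read of Psme3 and Psme4 were 1.06 in the cold and 2.28 in the control library, 2.14-fold lower (1.56 to 2.94). This ratio was not planned, and it sets the genes with ratios below 1 against those above 1. Psme2b had 1 read in each library. It shares 617 sequence words of 31 bases with Psme2, 76.5% of those of the smaller gene, so its reads are uncertain.

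The 4 interferon-inducible members Psmb9, Psmb10, Psme1 and Psme2 summed to 186 cold and 371 control reads, 1.62-fold lower in the cold library (1.35 to 1.94). Psme1 and Psme2 gave 151 of these cold and 315 of these control reads, so the sum mostly restates that pair. Psmb10 had a ratio of 1.16 with an interval that held 1. Of 6 interferon response genes with at least 20 reads, 1 was higher and 1 lower, and the median log2 ratio was -0.62. Bst2, an antiviral membrane protein, had 12 cold and 43 control reads, 2.91-fold lower (1.51 to 6.05), while Ifi27 had 2364 cold and 2014 control reads, a ratio of 1.45 (1.36 to 1.54). The 12 lymphocyte markers summed to 70 cold and 136 control reads, 0.00576% (0.00449 to 0.00728) of cold and 0.00801% (0.00672 to 0.00947) of control reads, and were 1.58-fold lower (1.17 to 2.13). Most of these are reads of Cd74, the invariant chain of antigen presentation, with 52 cold and 119 control reads. The other 11 markers summed to 18 cold and 17 control reads, a ratio of 1.31 (0.635 to 2.70). Among the T cell markers, Cd3d and Cd4 were at 0 in both libraries, Cd3e had 1 cold and 0 control reads, Cd3g 0 and 1, and Trbc2 3 and 3. The 12 macrophage and monocyte markers summed to 149 cold and 127 control reads, a scaled ratio of 1.45 (1.13 to 1.85). These were 0.0123% (0.0104 to 0.0144) of cold and 0.00748% (0.00623 to 0.00890) of control reads. Lyz2 (45 cold and 31 control reads) and C1qa (31 and 20) were higher by the rule. The other 10 markers summed to 73 cold and 76 control reads, a ratio of 1.18 (0.847 to 1.66). Both this remainder and that of the lymphocyte markers leave out the called genes, a choice made after values were seen. The part of immune cells in the interferon-inducible subunits was not tested.

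Core and cap reads stood in nearly the same proportion in both libraries, and activator reads were fewer relative to both in the cold library. The 16 core genes with at least 20 reads had a median log2 ratio of -0.02, the 20 cap genes 0.03 and the 4 activator genes -0.21, beside -0.00 for all genes. Without the 3 chaperones the cap median was 0.12, with 10 of 17 genes above 1. These 17 are also the cap genes with at least 100 summed reads, so that limit gives the same median and adds nothing further. Core reads were 0.218% (0.209 to 0.226) of the cold and 0.188% (0.182 to 0.195) of the control library, a scaled ratio of 1.02 (0.967 to 1.07). Cap reads were 0.139% (0.132 to 0.146) and 0.118% (0.113 to 0.123), a ratio of 1.04 (0.972 to 1.11). Under plain totals, and under totals without mitochondrial transcripts, the intervals of core and cap both lay above 1. Activator reads were 0.0242% (0.0215 to 0.0271) and 0.0267% (0.0243 to 0.0293), a ratio of 0.799 (0.687 to 0.927), with an interval that held 1 under plain totals or with protein-coding transcripts only. Ratios between groups need no scaling. The core had 1.57 reads per cap read in the cold and 1.59 in the control library, a ratio of 0.982 (0.904 to 1.07). It had 8.99 reads per activator read in the cold and 7.05 in the control library, a ratio of 1.28 (1.09 to 1.50), and the cap had 5.74 and 4.42, a ratio of 1.30 (1.10 to 1.53). Within the activator group the difference came with Psme1 and Psme2, which had 0.0571 reads per core read in the cold and 0.0984 in the control library, 1.72-fold lower (1.41 to 2.12).

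Per length, the highest alpha, ATPase and lid subunits and the lowest beta and lid subunits were the same genes in both libraries. In RPM per kilobase of transcript, the alpha ring ran from 41.2 (Psma5) to 242 (Psma6) in the cold library and from 39.2 (Psma2) to 166 (Psma6) in the control library. The beta ring ran from 84.4 (Psmb1) to 289 (Psmb5) in the cold and from 69.1 (Psmb1) to 249 (Psmb3) in the control library. ATPases were more even, from 40.6 (Psmc2) to 66.6 (Psmc4) in the cold and from 28.7 (Psmc6) to 59.7 (Psmc4) in the control library. In the lid Psmd11 was lowest, at 18.5 in the cold and 13.6 in the control library, and Psmd8 highest, at 140 and 111. The cap chaperones lay below every stable cap subunit, at 4.29 to 7.48 in the cold and 5.78 to 11.6 in the control library. Among activators Psme2 was at 80.5 in the cold and 118 in the control library, Psme1 at 29.8 and 44.0, Psme3 at 25.6 and 17.3, and Psme4 at 8.11 and 5.62. Most Psme1 reads were counted on a retained-intron transcript of 1986 bases, against 1112 for its coding transcript. The level of Psme1 per length, and its distance from Psme2, depend on that assignment. Psmb10 was at 32.8 in the cold and 25.3 in the control library, and Psmb9 at 1.41 and 9.80. Length here is that of the annotated transcripts, and direct RNA reads are often shorter than the molecule. Division by length lowers genes with long transcripts, so the order of genes by RPM can differ.

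Nfe2l1 (chr11:96817414-96829968, minus strand) had 174 cold and 188 control reads, or 143 and 111 RPM. Its scaled ratio was 1.14 (0.923 to 1.41), a log2 ratio of 0.19, and the interval held 1. In RPM it stood above every ATPase gene, the highest of which was Psmc4 at 98.7 in the cold and 90.1 in the control library. Per length the order was reversed, since Nfe2l1 transcripts are long. There it was at 34.5 in the cold and 27.1 in the control library, below the lowest of the ATPases in each library. Nfe2l1 had 0.0658 reads per core read in the cold and 0.0588 in the control library, a ratio of 1.12 (0.900 to 1.39). With plain library totals its ratio was 1.29 (1.05 to 1.60). The depth did not allow a difference of this size between Nfe2l1 and the subunits to be resolved.

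Of the 7 genes that process Nfe2l1 and had at least 20 reads, 0 had a ratio above 1 (3 with plain totals), 1 was lower by the rule, and the median log2 ratio was -0.34. Vcp, the ATPase that extracts Nfe2l1 from the membrane of the endoplasmic reticulum, had 131 cold and 204 control reads, 1.26-fold lower (1.01 to 1.58), or a ratio of 0.897 (0.715 to 1.12) with plain totals. Syvn1, a ubiquitin ligase of that membrane, had 26 and 50 reads and a ratio of 0.641 (0.383 to 1.05). Ddi2, the protease that cuts Nfe2l1, had 24 and 30 reads and a ratio of 0.987 (0.552 to 1.75), and Ngly1, which removes its sugars, 50 and 62 and a ratio of 0.994. Among 5 genes of its turnover and family with at least 20 reads, 0 were higher and 0 lower. Its relative Nfe2l2 had 61 cold and 82 control reads and a ratio of 0.917 (0.648 to 1.29).

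Adrm1 and Sem1 are cap subunits whose symbols do not follow the naming rule. Adrm1, a ubiquitin receptor of the base, had 116 cold and 183 control reads, 1.28-fold lower (1.01 to 1.63). Sem1, the smallest lid subunit, had 115 and 185 reads, 1.30-fold lower (1.03 to 1.66). Per read of the stable cap subunits named by the rule, both together had 0.141 reads in the cold and 0.193 in the control library, 1.37-fold lower (1.14 to 1.64). With plain totals the ratios were 0.885 for Adrm1 and 0.868 for Sem1, with intervals that held 1. Chaperones of core assembly did not differ by the rule, with 0 of 5 higher and 0 lower. Pomp, which seats the beta subunits, had 94 cold and 127 control reads and a ratio of 0.913 (0.692 to 1.20). Among 8 associated factors, 1 was higher and 0 lower. It was Zfand5, a zinc finger protein that stimulates the proteasome, with 95 cold and 63 control reads and a ratio of 1.86 (1.34 to 2.60). Usp14, a deubiquitinase that trims chains at the cap, had 28 and 53 reads and a ratio of 0.651 (0.397 to 1.05).

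Ubb, which encodes a chain of ubiquitin units, had 511 cold and 587 control reads and a ratio of 1.07. Of 10 genes for ubiquitin activation and shuttling, 1 was higher, the shuttle Ubqln1, with 130 cold and 118 control reads and a ratio of 1.36 (1.05 to 1.76). Antioxidant targets of Nfe2l2, which share the response motif, went both ways, with 2 of 7 higher and 3 lower. Srxn1, which repairs oxidised peroxiredoxins, had 124 cold and 57 control reads, a ratio of 2.68 (1.95 to 3.74). Txnrd1, a thioredoxin reductase, had 85 and 51 reads and a ratio of 2.06 (1.44 to 2.97), whereas G6pdx, which makes NADPH, had 195 and 347 reads and was 1.44-fold lower (1.21 to 1.73).

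**Figure D3:**
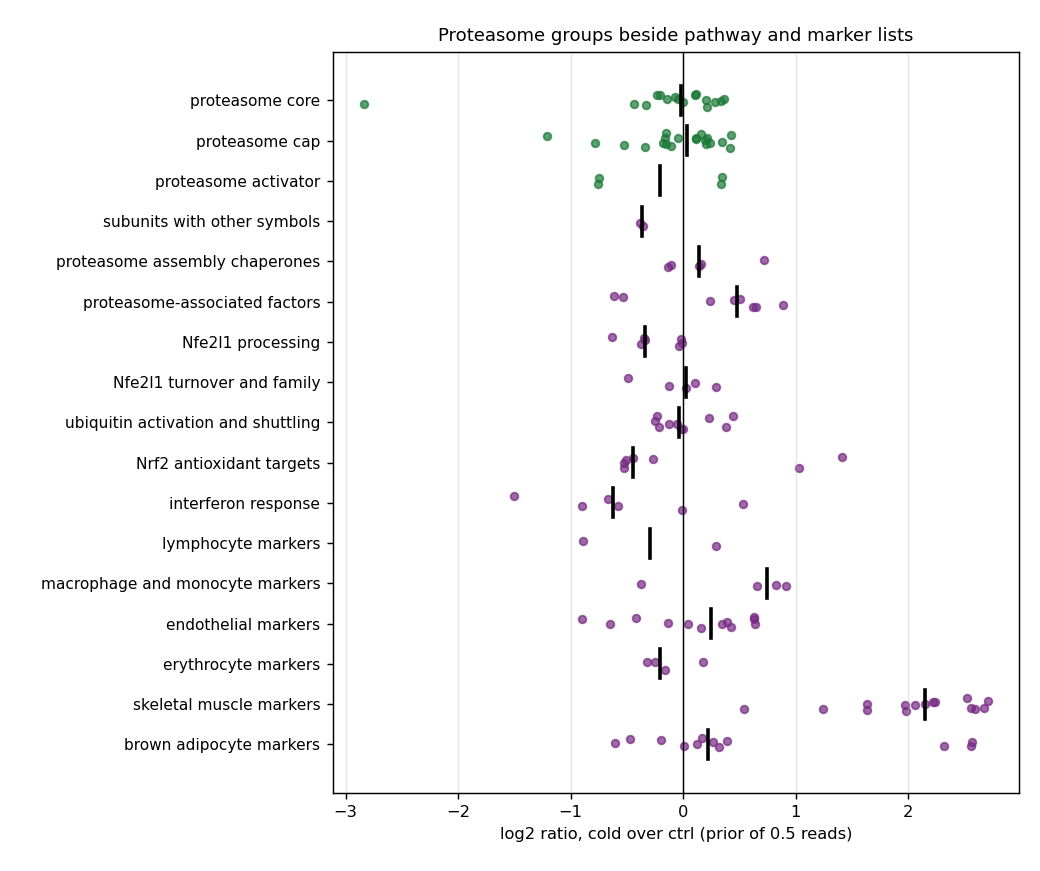
Log2 ratio, cold over control, of each gene with at least 20 summed reads in the proteasome groups (green) and in pathway and marker lists (purple), 1 point per gene, with a black bar at each median. Core and cap points centre on 0, activator points fall into a pair near -0.76 and a pair near 0.34, and skeletal muscle markers all lie to the right of 0.

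Reads of the 43 detected genes fell on 119 annotated transcripts. In 24 genes a single transcript took over 90% of the reads in both libraries. Protein-coding transcripts took 91.1% of cold and 89.2% of control reads, retained-intron transcripts 5.23% and 6.68%, and transcripts annotated for nonsense-mediated decay 3.42% and 3.86%. For the 20 genes with 100 or more reads per library, 66 transcripts were compared, and 0 had a share difference with an interval that excluded 0. The largest was that of Psmd4-202, with 37.4% (28.2 to 47.3) of cold and 26.1% (19.1 to 34.1) of control Psmd4 reads, a difference of 11.3 points (-0.257 to 22.8). Psmd8-202 had 37.8% of cold and 31.3% of control Psmd8 reads, a difference of 6.48 points (-1.65 to 14.5). Psmd2-201 had 53.3% and 59.6%, a difference of -6.38 points (-19.1 to 6.60), with most other Psmd2 reads on Psmd2-206, annotated for nonsense-mediated decay. Psmd4-203 differed by -5.94 points (-15.4 to 4.13). Differences of this size were not resolved at this depth.

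Nfe2l1 was spread over 6 transcripts, all annotated as protein coding. Nfe2l1-211 was the most frequent, with 35.1% of cold and 29.3% of control Nfe2l1 reads, a difference of 5.80 points (-3.79 to 15.3). Psme1 reads lay mostly on Psme1-206, annotated as a retained intron, with 77.0% (64.5 to 86.8) of 61 cold and 78.7% (70.6 to 85.5) of 127 control reads. Its coding transcript Psme1-208 took 23.0% and 21.3%. Its 14 cold and 27 control reads gave a ratio of 0.639, and at this depth the interval held 1 (0.310 to 1.26). Psma3 was split among the coding Psma3-202, with 23.5% of cold and 27.4% of control reads, the retained intron Psma3-203, with 33.5% and 32.5%, and Psma3-206, annotated for nonsense-mediated decay, with 36.3% and 33.9%. With protein-coding transcripts alone, Psma3 had 51 cold and 87 control reads and a ratio of 0.723, and the wider interval held 1 (0.501 to 1.03). A pseudogene copy of Psma3 that shares 100% of its words with the gene had 0 reads.

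**Figure D4:**
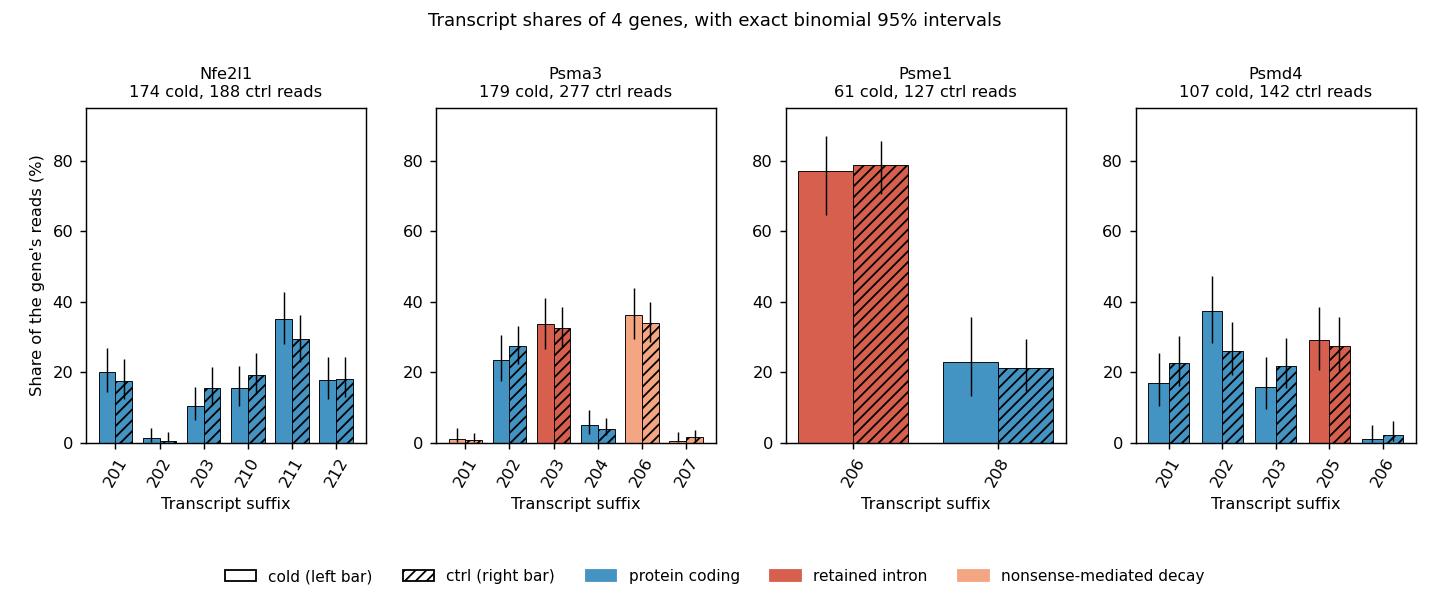
Share of each gene's reads (%) by transcript for Nfe2l1, Psma3, Psme1 and Psmd4, with the cold library as the left bar and the control library as the right, hatched bar, and exact binomial 95% intervals. Colours give the annotated transcript type, and the intervals of the 2 libraries overlap for every transcript shown.

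RefSeq promoter windows were matched for 38 of the 45 genes, 45 windows in all, since some genes have several. Windows of a gene can overlap, as those of Nfe2l1 do, so window shares can count the same site more than once. The antioxidant response motif TGACNNNGC was found in 6 windows of 6 genes (Psmb5, Psmb6, Psmc6, Psmd9, Psmd12 and Psme4), 13.3% of their windows, against 12.4% of 32850 windows of all genes. CCAAT was found in 19 windows of 16 genes, 42.2% against 37.4%, Nfe2l1 among them. The interferon-stimulated motif (GAAA, any 2 bases, GAAA) was found in Psmb3, Psmd4, Psmd9 and Psme1, 8.89% against 3.44% of windows. The gamma-activated motif TTCNNNGAA was found in Psmd2 alone, 2.22% against 8.30%. Of the 6 genes with the antioxidant motif, Psmb5 and Psmc6 were higher in the cold library, Psmd9 was lower, and Psmb6, Psmd12 and Psme4 had ratios of 0.907, 1.08 and 1.27 with intervals that held 1. Psma6, also higher, has windows without the antioxidant motif. Of the 3 lower interferon-inducible genes printed above, Psme1 alone held an interferon-stimulated match. A match is a run of letters in a window, not a bound site.

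**Figure D5:**
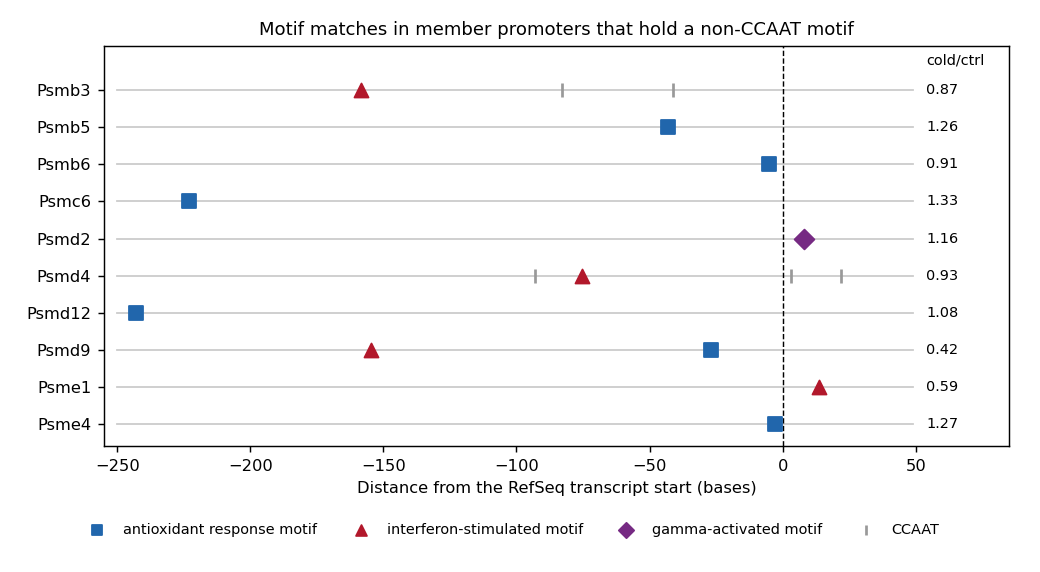
Position of motif matches in base pairs from the RefSeq transcript start (dashed line at 0) for the 10 proteasome genes whose promoter window holds a motif other than CCAAT, with the cold over control ratio of each gene at the right. Antioxidant matches stand beside ratios between 0.42 for Psmd9 and 1.33 for Psmc6.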

How the data were processed

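Poly(A)+ RNA, selected in 2 rounds, was made into libraries from 500 ng with a direct RNA kit, per the labels' protocols. The authors deposited 1 file per library with raw counts of reads for each Ensembl transcript, the lowest being 1. The submitters' processing notes name minimap2 and GRCm38. The handling of reads that match several transcripts is not given in the sources used here. Counts were summed to genes with GENCODE mouse release M21 (GRCm38, coordinates from 1). No gene was found for 79 cold transcripts (0.0652% of reads) and 75 control transcripts (0.0571%). Library sizes were scaled by TMM in edgeR 4.0.16 (R 4.3.3). DESeq2 1.42.0 size factors and plain totals were alternatives.

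Ratios of scaled counts have exact Clopper-Pearson intervals of the cold share of both counts, and log2 ratios use a prior of 0.5 reads. Ratios between groups of genes are odds ratios with exact conditional intervals. Transcript shares have exact binomial intervals, and their differences Newcombe intervals, in percentage points. A count of 0 was given a floor of 3 reads. Intervals and floors cover counting error only. The calculations were tested on simulated data. Sequence copies were found as shared words of 31 bases.

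Groups were taken from the treatment label. All genes of the naming rule are named, except 1 gene not reported here, and some genes of the pathway lists are likewise not reported. Full values go to Nfe2l1, to genes past the call rule, and to the highest, lowest and most counted genes of each group with at least 50 summed reads. The pathway lists give up to 3 genes each on the same basis, and Ddi2, Ngly1, Ubb, Bst2, Usp14, Syvn1, Nfe2l2, Psmd5, Psmd9, Psmd10 and the interferon-inducible core genes were named for their role or after their values were seen. The members and lists were chosen with earlier results of these data known. Added after values were seen were the interferon motifs, pairs of single genes and marker sums without the called genes. So were ratios of single genes from coding transcripts alone, and reads of Nfe2l1 and of Psme1 with Psme2 per core read. The planned ratios between groups were those among core, cap and activator. The ratios of Psme1 with Psme2 to Psme3 with Psme4 and of alpha to beta ring were outside that plan. The same holds for the chaperones, and for Adrm1 with Sem1, per read of the stable cap subunits.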

Additional observations from a re-analysis of the deposited data

How the results depend on the processing

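With 1 library per group no replicate can be left out. No paired analysis was possible because each group has 1 library. Under the alternatives, 79 recomputed values moved by less than the width to one side of a counting interval (a median by that of its group's summed reads) or, for counts, by no more than 1.5 times, and 13 moved further. Plain library totals moved 6 of these. They gave a median log2 ratio of 0.16 for the core and 0.21 for the cap, log2 ratios of summed reads of 0.21 (0.13 to 0.28) for the core and 0.23 (0.14 to 0.33) for the cap, and 11 proteasome genes higher and 4 lower. The median of all genes moved to 0.17 under the same totals. Under these totals Psma3, Psmb2 and Psmd7 were no longer lower by the rule, the log2 ratio of activator reads was -0.14 (-0.36 to 0.07), and the activator median was -0.03. Totals without mitochondrial transcripts gave 5 genes higher. With them the log2 ratios of summed reads were 0.09 (0.01 to 0.16) for the core and 0.11 (0.02 to 0.21) for the cap. Both intervals thus excluded 0, while the median of all genes was 0.06. A 2-fold rule gave 0 higher and 2 lower, and protein-coding transcripts alone gave 4 lower, with an activator log2 ratio of -0.21 (-0.46 to 0.03). Admitting genes with 1 read gave an activator median of 0.20, since Psme2b, with 1 read per library, entered. At 50 reads per library, 2 of 100 transcript shares in 36 genes had intervals that excluded 0, both of Psmd13. The wider motif TGANNNNGC was found in 22 of the 38 genes with a window. It was in 62.2% of the 45 windows against 41.3% of all, where overlapping windows of Nfe2l1 count the same site more than once. The log2 ratio of Nfe2l1 ranged between 0.16 and 0.45. Genes with under 50 summed reads, such as Psmb9 and Psmd9, are limited by depth.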

Other observations

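Psmd13, a lid subunit, had 61 cold and 56 control reads, too few for the transcript comparison at 100 reads. Its main transcript Psmd13-201 took 83.6% of cold and 96.4% of control reads, a difference of -12.8 points (-24.3 to -1.62). Psmd13-204 took 13.1% of cold reads (8 of 61) and 1.79% of control reads (1 of 56), a difference of 11.3 points (1.40 to 22.1). Of 100 transcripts compared at 50 reads per library, only these 2 had an interval that excluded 0. Psmc4, the ATPase with the highest level per length, had 31.7% of its cold and 36.6% of its control reads on the retained-intron transcript Psmc4-204. Of 7 pseudogene copies that share most of their sequence with a proteasome gene, 2 had a read, 1 cold read for a copy of Psma5 and 1 control read for a copy of Psmb3.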
